A study of Mus musculus with 12 samples.

Results

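Gas5, Snhg1, Snhg3, Snhg6, Snhg8 and Snhg12 are long noncoding RNAs whose genes carry small nucleolar RNAs (snoRNAs) inside them. These 6 named host genes were taken by their Ensembl identifiers from both count tables, where they are 6 of 55487 genes. The libraries came from B16F10 cells, a mouse melanoma line, carrying either a control hairpin (shCtr) or hairpin OSGEP#2 (shOSGEP) against Osgep, the catalytic subunit of the KEOPS complex that makes the t6A modification on tRNAs. Per the methods, hairpins were delivered by lentivirus and selected with puromycin in 3 independent transductions, and cells of both genotypes received cycloheximide before lysis. Ribosome-protected fragments (RPF), captured on beads with a puromycin analogue and selected as short pieces on a gel, and an RNA library of the same replicate number were sequenced, which gave 4 groups of 3 libraries from 6 cell samples. The RNA libraries are named total RNA in their library names but polyA RNA in their molecule field, and are called RNA libraries here.

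The product that a snoRNA host gene is best known for lies in its introns. After splicing, each intron is trimmed to a snoRNA, which guides 2′-O-methylation (box C/D class) or pseudouridylation (box H/ACA class) of ribosomal and spliceosomal RNA. The spliced exons are exported with only short open reading frames, ribosomes engage them, and nonsense-mediated decay, which removes RNAs with an early stop codon, then degrades many of them. Gas5, named for its build-up in growth-arrested cells, is the textbook case, and many hosts start with a pyrimidine tract (a 5′ TOP), which ties their translation to growth signals.

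Annotated snoRNA rows on the same strand numbered 10 in Gas5, 8 in Snhg1, 2 in Snhg3, 1 in Snhg6, 1 in Snhg8 and 5 in Snhg12. By class, Gas5 (9 of 10, with Mir5117 of no given class), Snhg1 (8 of 8) and Snhg6 (1 of 1) are C/D hosts. The rows of Gas5 include an overlapping pair, both named Snord80. Snhg3 (2 of 2) and Snhg8 (1 of 1) are H/ACA hosts, and Snhg12 holds 4 H/ACA rows, of which a pair overlaps, and 1 C/D row. The most counted snoRNA of each host, or its only one, is printed below from the GENCODE M21 transcripts, so that the short RNAs whose reads may fall within the host rows can be seen. Capitals mark the C box TGATGA within 20 bases of the 5′ end, the D box CTGA within 20 bases of the 3′ end, and ACA within 8 bases of the 3′ end, all read on the RNA's own strand.
Gm26224 (SNORD74, in Gas5): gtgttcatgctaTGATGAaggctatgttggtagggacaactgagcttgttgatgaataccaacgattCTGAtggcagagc
Gm25894 (SNORD26, in Snhg1): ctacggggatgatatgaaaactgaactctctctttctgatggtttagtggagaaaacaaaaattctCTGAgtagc
Snord87 (in Snhg6): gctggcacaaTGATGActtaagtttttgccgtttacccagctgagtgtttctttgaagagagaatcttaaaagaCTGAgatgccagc
Snora73b (in Snhg3): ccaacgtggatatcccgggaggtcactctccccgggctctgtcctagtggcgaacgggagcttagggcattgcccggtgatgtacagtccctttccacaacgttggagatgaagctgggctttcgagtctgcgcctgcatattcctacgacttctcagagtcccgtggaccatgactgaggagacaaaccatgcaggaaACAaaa
Snora24 (in Snhg8): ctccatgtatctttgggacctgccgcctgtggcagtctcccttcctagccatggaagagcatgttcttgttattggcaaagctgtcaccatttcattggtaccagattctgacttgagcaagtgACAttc
Snora44 (in Snhg12): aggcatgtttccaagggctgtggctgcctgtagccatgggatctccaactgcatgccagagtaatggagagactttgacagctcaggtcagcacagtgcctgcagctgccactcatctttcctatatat
In GRCm38, Gm26224 lies at chr1:161035394-161035473 and Gm25894 at chr19:8724251-8724325, both on the plus strand. Snord87 lies at chr1:9942463-9942549, Snora73b at chr4:132352322-132352526 and Snora24 at chr3:123507937-123508066, on the minus strand, and Snora44 at chr4:132309941-132310069 on the plus strand. Of the 19 hosted C/D rows, 14 held TGATGA and 19 held CTGA in these windows, against 79.2% and 96.8% of all 370 C/D rows. Of the 7 hosted H/ACA rows, 6 held ACA, against 67.8% of all 766.

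The starts of the hosts are shown because a TOP tract would lie there. RefSeq windows were found for 5 of the 6 members, with a pair of starts for Gas5. Each line below gives 10 bases before the start and 20 from the start on, in GRCm38.p6, with capitals for the unbroken run of C and T over the start base.
Gas5, upstream start: gcgggcccgcgagctcgacagcccggagcc
Gas5, downstream start: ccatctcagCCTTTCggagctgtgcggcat
Snhg1: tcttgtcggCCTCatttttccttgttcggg
Snhg3: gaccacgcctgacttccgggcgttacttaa
Snhg8: gttcagaagTCTCTTTggctgcgatccgcc
Snhg12: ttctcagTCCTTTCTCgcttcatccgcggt
These windows lie at chr1:161034591-161034620, chr1:161035156-161035185, chr19:8723477-8723506, chr4:132353667-132353696 (minus strand), chr3:123508317-123508346 (minus strand) and chr4:132308668-132308697. The run was 9 letters in Snhg12, 7 in Snhg8, 6 at the downstream start of Gas5 and 4 in Snhg1. A run of at least 5 letters over the start base was present in 10.1% of 32851 RefSeq windows. No run covered the annotated start of Snhg3.

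The annotation decides which reads a host row can hold. In GENCODE M21, Gas5 (ENSMUSG00000053332) spans chr1:161034422-161038539 with 25 transcripts, of which 20 retain an intron. Snhg1 (ENSMUSG00000108414, chr19:8723475-8726443) has 18 transcripts, of which 14 retain an intron. Snhg12 (ENSMUSG00000086290, chr4:132308623-132311024) and Snhg8 (ENSMUSG00000104960, chr3:123507552-123508404, minus strand) are exonic over their whole spans of 2402 and 853 bases once all transcripts are merged. Snhg3 (ENSMUSG00000085241, chr4:132348014-132353686, minus strand) has 986 exonic bases in a span of 5673, and Snhg6 (ENSMUSG00000098234, chr1:9941959-9944118, minus strand) has 1146 in 2160. As a result, 24 of the 27 hosted snoRNA rows lie wholly within merged exons of their host, 1 (Snora73a in Snhg3) partly, and 2 (Snora73b and Snord87) outside. How the counting step shared a read between a host and its snoRNA was not stated. The gene counts of Gas5, Snhg1, Snhg8 and Snhg12 in particular may therefore hold snoRNA reads. So may those of Snhg3, whose exons cover 159 of the 205 bases of Snora73a. The use of strand was not stated either. Zbtb37 runs antisense over Gas5, Gm17300 over Snhg3 and Mcmdc2 over Snhg6, and Rcc1 shares 135 exonic bases with Snhg3 on the same strand.

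RPF libraries held 12.9 to 40.3 M counts (M for mega), 4.42 to 17.0 M of them on protein-coding genes, and RNA libraries held 46.7 to 81.1 M. The members took 0.0143% to 0.263% of an RPF library and 0.00963% to 0.0169% of an RNA library. In shOSGEP replicates 1, 2 and 3, Osgep RNA stood at 4.25%, 44.03% and 44.4% of its level in the matching shCtr library, and Osgep RPF at 63.1%, 52.3% and 50.1%. All 7 melanocytic markers were detected in every RNA library, with a summed level of 9660 to 16829 counts per M (CPM) in shCtr and 2654 to 12784 in shOSGEP. Of the other cell markers, the fibroblast sum reached 15.3 CPM in 1 library and the immune, keratinocyte and endothelial sums stayed at or below 4.86. In bulk RNA, fewer cells with an RNA and less of it per cell cannot be told apart. A pair of RPF libraries stood apart. The shOSGEP replicate 1 library was 67.7% ribosomal RNA, and the shOSGEP replicate 3 library held 5595 CPM of C/D and 5318 CPM of H/ACA snoRNA rows, 2.35 and 2.86 times the next highest library.

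The level of each member was examined first. Values are CPM on library sizes scaled with TMM factors within each assay, given for replicates 1, 2 and 3 in that order. Ribosomal RNA took a large share of the RPF libraries, so CPM of the 2 assays are on separate scales and are compared only through ratios centred on other genes. In the RNA libraries, Gas5 measured 49.1, 52.5 and 67.6 CPM in shCtr and 38.6, 60.4 and 84.3 in shOSGEP. The lowest and the highest Gas5 value were both from shOSGEP, so the groups overlapped. Snhg1 RNA measured 23.1, 25.7 and 25.7 CPM in shCtr and 12.9, 26.0 and 26.8 in shOSGEP, with shOSGEP replicate 1 alone at the low end. Snhg3 RNA showed the same arrangement, with 10.8, 14.9 and 11.96 CPM in shCtr and 4.15, 15.1 and 12.02 in shOSGEP.

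Snhg6 RNA measured 20.8, 20.2 and 15.3 CPM in shCtr and 24.3, 21.6 and 16.3 in shOSGEP. It was the one member whose highest RNA value was in shOSGEP replicate 1. Snhg8 RNA measured 11.7, 13.6 and 8.14 CPM in shCtr and 6.29, 11.9 and 9.91 in shOSGEP. Snhg12 RNA measured 10.7, 14.6 and 12.8 CPM in shCtr and 7.16, 13.6 and 13.4 in shOSGEP. For both, shOSGEP replicate 1 was lowest and the remaining libraries were interleaved.

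In RPF, Gas5 measured 45.1, 75.6 and 75.0 CPM in shCtr and 27.3, 69.1 and 117 in shOSGEP. Snhg1 measured 102, 65.9 and 119 CPM in shCtr and 28.4, 83.1 and 253 in shOSGEP. In both C/D hosts shOSGEP replicate 1 was the lowest library and shOSGEP replicate 3 the highest. Snhg6 RPF stayed within a narrow range, with 10.9, 13.8 and 13.7 CPM in shCtr and 11.7, 10.8 and 15.1 in shOSGEP.

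The H/ACA hosts spread further. Snhg3 RPF measured 129, 139 and 141 CPM in shCtr, a narrow spread (SD 6.53), and 52.2, 137 and 805 in shOSGEP. Snhg12 RPF measured 108, 109 and 141 CPM in shCtr and 66.5, 113 and 448 in shOSGEP. Both were lowest in shOSGEP replicate 1 and highest in shOSGEP replicate 3. Snhg8 RPF measured 140, 80.0 and 65.9 CPM in shCtr and 147, 80.4 and 318 in shOSGEP, and was not low in shOSGEP replicate 1. Groups of the 2 genotypes overlapped for all 6 members in both assays, whereas 5.07% of all genes in RPF, 7.08% in RNA and 4.25% for the ratio of RPF to RNA did not overlap.

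**Figure D1:**
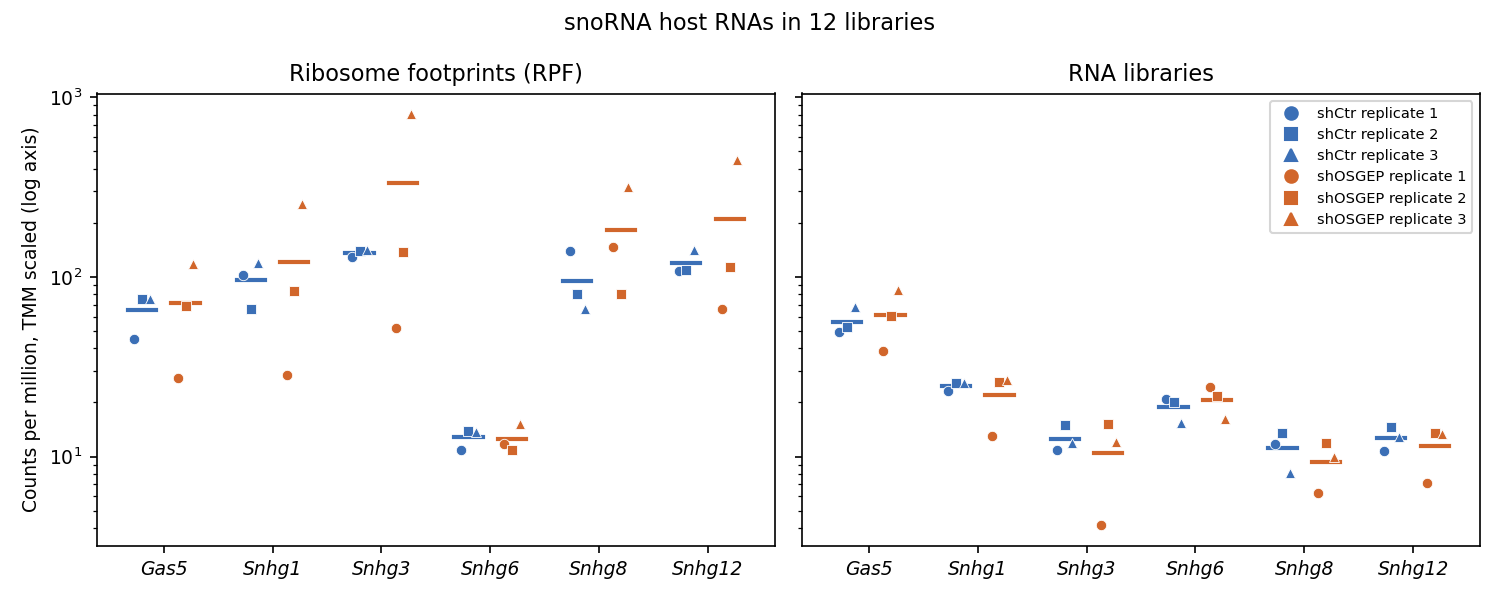
CPM of the 6 members in the 12 libraries on a log axis, RPF on the left and RNA on the right. Points are libraries, marker shapes replicate numbers and bars group means (n = 3). In RPF, Snhg3 reached 805 CPM in shOSGEP replicate 3 against 52.2 to 141 in the other 5 libraries, and Snhg6 stayed between 10.8 and 15.1.

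To compare members with each other, CPM were divided by the merged exonic length in kilobases (kb). In shCtr RNA the members stood within a 3.10-fold range. Snhg6 measured 16.4 ± 2.61 CPM per kb, Gas5 15.0 ± 2.61, Snhg8 13.1 ± 3.23 and Snhg3 12.8 ± 2.15 (SD, n = 3), and each overlapped its neighbour in this order. Snhg1 (8.37 ± 0.504) and Snhg12 (5.28 ± 0.807) were lower without overlap. In shCtr RPF the range was 12.4-fold and the order differed. Snhg3 (138 ± 6.62 CPM per kb) and Snhg8 (112 ± 46.0) overlapped at the top, followed without overlap by Snhg12 (49.6 ± 7.96), Snhg1 (32.2 ± 9.11) and Gas5 (17.3 ± 4.65). Snhg6 (11.2 ± 1.46) overlapped Gas5. Merged exons that cover the introns of other transcripts lower the per-kb level of Gas5, Snhg1, Snhg8 and Snhg12.

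RPF counts per RNA were then compared, to ask how far each host stands out in the RPF libraries relative to its RNA. RNAs that are not translated can stand out as well. Per M of protein-coding counts, summed H/ACA snoRNA rows held 4247 to 16313 counts in RPF libraries and 34.3 to 57.3 in RNA libraries. What part of a host's RPF counts came from ribosomes was not tested. All 6 members were higher in RPF than in RNA in shCtr cells by edgeR's quasi-likelihood test at an adjusted p under 0.05, against 6.24% of the 11228 genes tested that were called higher. TMM factors here ran over the 6 shCtr libraries together, so that a difference of 0 stands for a typical gene. The differences on the log2 scale were 4.80 for Snhg3 (SE 0.21, adjusted p 4.88e-06), 4.60 for Snhg12 (SE 0.22, adjusted p 1e-05) and 4.46 for Snhg8 (SE 0.35, adjusted p 8.53e-05). These correspond to 27.9-, 24.3- and 22.1-fold, and all 3 genes host H/ACA snoRNAs, Snhg12 with 1 C/D row as well. The C/D hosts among the members followed, with 3.31 for Snhg1 (SE 0.25, adjusted p 6.9e-05), 1.58 for Gas5 (SE 0.24, adjusted p 0.00446) and 0.82 for Snhg6 (SE 0.20, adjusted p 0.0314), or 9.95-, 2.98- and 1.76-fold. Whether this order goes with snoRNA class was not tested. The difference of Gas5 missed the threshold without replicate 2 (1.40, adjusted p 0.0706). That of Snhg6 missed it without replicate 1, 2 or 3 (adjusted p 0.0911, 0.177 and 0.176), while the other 4 kept their call in each of these fits. With the replicate number as a block, all 6 members were called, and calls over all genes in either direction went from 1297 to 3144.

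By cell sample, the ratio was centred on the median protein-coding gene, on the log2 scale. Snhg3 stood at 4.94, 4.61 and 4.94 in shCtr and at 5.06, 4.57 and 7.47 in shOSGEP. Snhg12 stood at 4.70, 4.30 and 4.85 in shCtr and 4.64, 4.45 and 6.47 in shOSGEP. Snhg8 stood at 4.95, 3.96 and 4.39 in shCtr and 5.96, 4.15 and 6.40 in shOSGEP. These 3 members lay at or above the 99.5th percentile of protein-coding genes in each of the 6 cell samples, and their shCtr values overlapped in the order given.

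Snhg1 stood at 3.52, 2.76 and 3.59 in shCtr and 2.56, 3.07 and 4.65 in shOSGEP, between the 98.7th and the 99.8th percentile. Gas5 stood at 1.26, 1.93 and 1.54 in shCtr and 0.93, 1.59 and 1.88 in shOSGEP, and Snhg6 at 0.45, 0.86 and 1.22 in shCtr and 0.38, 0.41 and 1.30 in shOSGEP. In shCtr neither Snhg8 and Snhg1, nor Snhg1 and Gas5, nor Gas5 and Snhg6 overlapped. For comparison, 95% of protein-coding genes lay below 0.97 to 1.60, depending on the cell sample. Snhg6 therefore lay inside the range of coding genes in 5 of 6 cell samples.

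**Figure D2:**
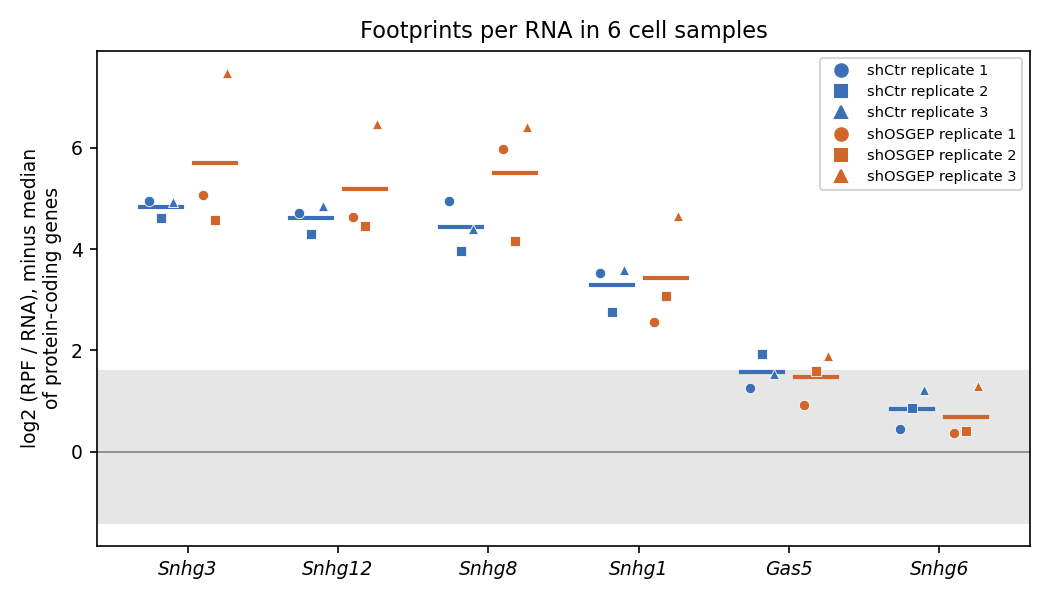
log2 ratio of RPF to RNA minus that of the median protein-coding gene, for each member in 6 cell samples. Points are cell samples, bars are group means (n = 3), and the grey band runs from the lowest 5th to the highest 95th percentile of protein-coding genes over the 6 cell samples (−1.41 to 1.60). Snhg3, Snhg12, Snhg8 and Snhg1 lie above the band in every cell sample.

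Other genes of the same kind were set beside the members. Of 15 further listed noncoding snoRNA hosts, 12 had an identifier and 8 could be tested for this ratio, of which 6 were higher in RPF (median 1.23 on the log2 scale). Among the 8, Snhg10 and Snhg20 hold no snoRNA in the annotation used, and Snhg20 (2.41) was among those called. Those with the most RNA gave 2.06 for Snhg17 (SE 0.27, adjusted p 0.00196), 1.33 for Snhg5 (SE 0.23, adjusted p 0.00866), 1.14 for Snhg15 (SE 0.22, adjusted p 0.0131) and 1.00 for Zfas1 (SE 0.18, adjusted p 0.0103), all edgeR. Their largest value, 2.89 for Dancr, was below those of Snhg1 and the 3 H/ACA hosts among the members. The snoRNA classes of the further hosts were not compared. Long noncoding genes without an annotated snoRNA were called higher in 51 of 300 cases (17.0%, median 0.55) and lower in 4. Protein-coding snoRNA hosts were called higher in 12 of 199 cases (6.03%, median 0.02) and lower in 15. Cytosolic ribosomal protein genes, the classic TOP mRNAs, were called higher in 3 of 80 (median −0.07) and lower in 13. Over all 11228 genes tested, 701 were called higher and 596 lower. The median of the members was 3.89 and that of all genes tested 0.01.

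snoRNA rows moved with the assay as well. Per M of protein-coding counts, summed C/D rows held 668 to 17165 counts in RPF libraries and 8.65 to 18.7 in RNA libraries, and summed H/ACA rows 4247 to 16313 and 34.3 to 57.3. Of the 27 hosted rows, 20 had a count in some RPF library, 4 in some RNA library and 7 in neither. The most counted was Gm26224 (SNORD74) with 4009, 4405 and 25836 counts in shCtr RPF and 176, 10754 and 29868 in shOSGEP RPF, and 0 in every RNA library. It alone exceeded the counts of its host Gas5, which were 801, 1249 and 3753 in shCtr RPF and 331, 2235 and 4530 in shOSGEP RPF, in 5 of 6 libraries. Gm22489 (SNORD75) ranged from 34 to 4480 counts in RPF and Mir5117 from 9 to 2881, with shOSGEP replicate 1 lowest for both.

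In Snhg1, Gm25894 (SNORD26) held 54 to 2817 RPF counts, Gm24452 (SNORD27) 0 to 62 and Gm25855 (SNORD25) 0 to 51. Snord22, also in Snhg1, went the other way, with 0 to 4 RPF and 50 to 211 RNA counts. In Snhg6, Snord87 held 227 to 6051 RPF counts, from 0.996 to 10.4 times the count of the host. In the H/ACA hosts, Snora73b held 86 to 833 RPF and 43 to 284 RNA counts, Snora73a 5 to 55 and 85 to 160, and Snora44 in Snhg12 4 to 66 and 13 to 77.

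Expressed per host count, snoRNA rows gave 0.713 to 8.25 counts in RPF for Gas5, 0.177 to 0.401 for Snhg1, 0.0285 to 0.144 for Snhg3 and 0.0038 to 0.0261 for Snhg12. In the RNA libraries they gave 0.230 to 0.989 for Snhg3, 0.049 to 0.14 for Snhg1, 0.0202 to 0.122 for Snhg12 and 0 for Gas5 and Snhg6. The row of Snora24, the only snoRNA of Snhg8, had 0 counts in all 12 libraries. This allows up to 0.0744 to 0.233 per M of all counts in an RPF library, without TMM scaling (3 counts, counting error only). Its bases lie wholly in Snhg8 exons, so a row at 0 does not tell where such reads were counted, and the part of snoRNA reads in the host rows was not tested.

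Depletion of OSGEP was compared next. None of the 6 members passed the test in RPF, in RNA or in their ratio (translational efficiency) at an adjusted p under 0.05 with edgeR, and none reached an unadjusted p under 0.05. Over all genes, 0% of 13529 were called in RPF, 0% of 14516 in RNA and 0% of 12560 for translational efficiency. At an unadjusted p under 0.05 there were 139, 259 and 17 genes, and DESeq2 called 1, 8 and 0. With the replicate block edgeR called 0, 1 and 0.

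In RNA the fitted log2 differences (shOSGEP minus shCtr) lay between −0.27 for Snhg3 (SE 0.45) and 0.14 for Snhg6 (SE 0.22), with a median of −0.17 against 0.02 for all genes. Gas5 gave 0.12 (SE 0.29), Snhg1 −0.18 (SE 0.29), Snhg8 −0.25 (SE 0.31) and Snhg12 −0.16 (SE 0.29). By replicate pair, the median of the members was −0.71, 0.02 and 0.08, so the shift lay in the first pair. Without shOSGEP replicate 1, the values of Snhg1, Snhg3 and Snhg12 were 0.08, 0.10 and 0.08. Snhg6 was higher in 3 of 3 pairs (0.22, 0.10 and 0.09), as were 17.7% of all genes.

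In RPF the fitted differences were 1.29 for Snhg3 (SE 0.91), 0.93 for Snhg8 (SE 0.56), 0.81 for Snhg12 (SE 0.69), 0.35 for Snhg1 (SE 0.73), 0.13 for Gas5 (SE 0.53) and −0.03 for Snhg6 (SE 0.25). Each is smaller than 2 SE. The median of the members was 0.58, against 0.05 for all genes and 0.45 for long noncoding genes without an annotated snoRNA. By pair, the median of the members was −0.71, −0.01 and 1.38. With the replicate block the median was 0.15, with 3 members above 0 and 3 below, and Snhg3 stood at 0.34 (SE 0.78). The pairs of Snhg3 gave −1.30, −0.02 and 2.52 and those of Snhg1 −1.84, 0.33 and 1.09, so pairs 1 and 3 differed in sign. Snhg8 was higher in 3 of 3 pairs (0.07, 0.01 and 2.27), as were 15.6% of all genes, and its difference was 0.047 without pair 3.

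The ratio followed the footprints. Differences in translational efficiency were 1.56 for Snhg3 (SE 1.08), 1.18 for Snhg8 (SE 0.65, unadjusted p 0.0975, edgeR adjusted p 1.00), 0.97 for Snhg12 (SE 0.78), 0.53 for Snhg1 (SE 0.83), 0.01 for Gas5 (SE 0.63) and −0.17 for Snhg6 (SE 0.32). The median of the members was 0.75 (0.32 with the replicate block), and by pair −0.12, 0.06 and 1.31. For long noncoding genes without an annotated snoRNA the median was 0.28, and for all genes 0.0032. Snhg8 was higher in 3 of 3 pairs (0.97, 0.20 and 1.99), as were 11.6% of all genes. Intervals of 2 SE on either side ran from −0.60 to 3.71 for Snhg3 and from −0.82 to 0.47 for Snhg6, so differences of several fold in the former were not excluded by these data.

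**Figure D3:**
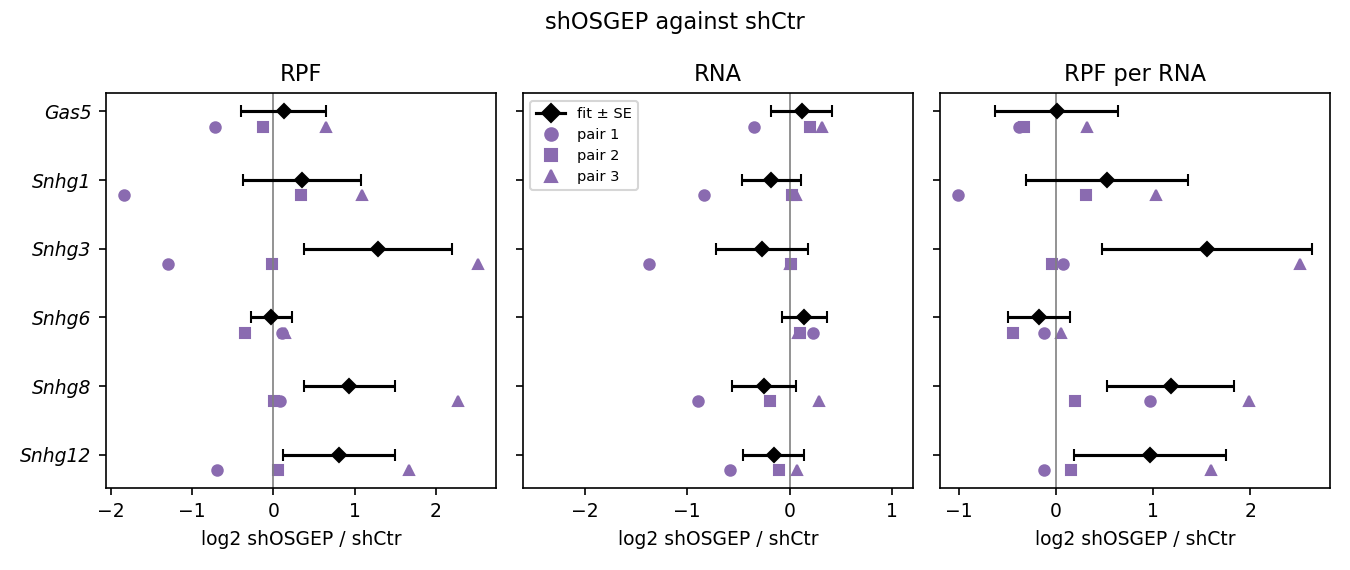
log2 difference between shOSGEP and shCtr for each member in RPF, RNA and their ratio. Diamonds are fitted values with 1 SE on either side, and coloured markers below them are the 3 replicate pairs. In RPF and in the ratio pair 3 lies to the right for Snhg3, Snhg8, Snhg12 and Snhg1, while in RNA pair 1 lies to the left for every member but Snhg6.

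A single library carried the positive footprint values. In shOSGEP replicate 3 RPF, Snhg3 was 5.72 times the next highest library, Snhg12 3.17 times, Snhg8 2.16 times, Snhg1 2.13 times, Gas5 1.55 times and Snhg6 1.09 times. Without it the RPF differences were −0.53 for Snhg3, −0.41 for Snhg12, −0.78 for Snhg1, −0.44 for Gas5, −0.19 for Snhg6 and 0.25 for Snhg8, none of them called. Without both the RPF and the RNA library of that cell sample, the median of translational efficiency was −0.19. In the shOSGEP replicate 3 RPF library the snoRNA rows were higher (above), and Snhg17 reached 296 CPM against 33.0 to 60.3 in the other 5. RNA levels of the members in that cell sample lay within the range of the other samples, except that Gas5 (84.3 CPM) and Snhg1 (26.8 CPM) were the highest of 6. Whether the composition of this library has a part in the footprint values was not tested.

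The shOSGEP replicate 1 library showed the reverse for one snoRNA class. Its C/D rows held 243 CPM, against 1367 or more in the other 5 libraries, whereas its H/ACA rows (1641 CPM) lay among theirs. The C/D hosts Gas5 (27.3 CPM) and Snhg1 (28.4 CPM) were lowest there, together with Snhg3 (52.2 CPM) and Snhg12 (66.5 CPM), while Snhg8 (147 CPM) and Snhg6 (11.7 CPM) were not. Loss of Osgep was deepest in replicate 1 by RNA (4.25% left). By RPF it was the least deep there, with 63.1% left against 52.3% and 50.1% in replicates 2 and 3. The coding depth of this RPF library was the lowest and its ribosomal share the highest. Depth of knockdown, coding depth and ribosomal share cannot be told apart here.

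**Figure D4:**
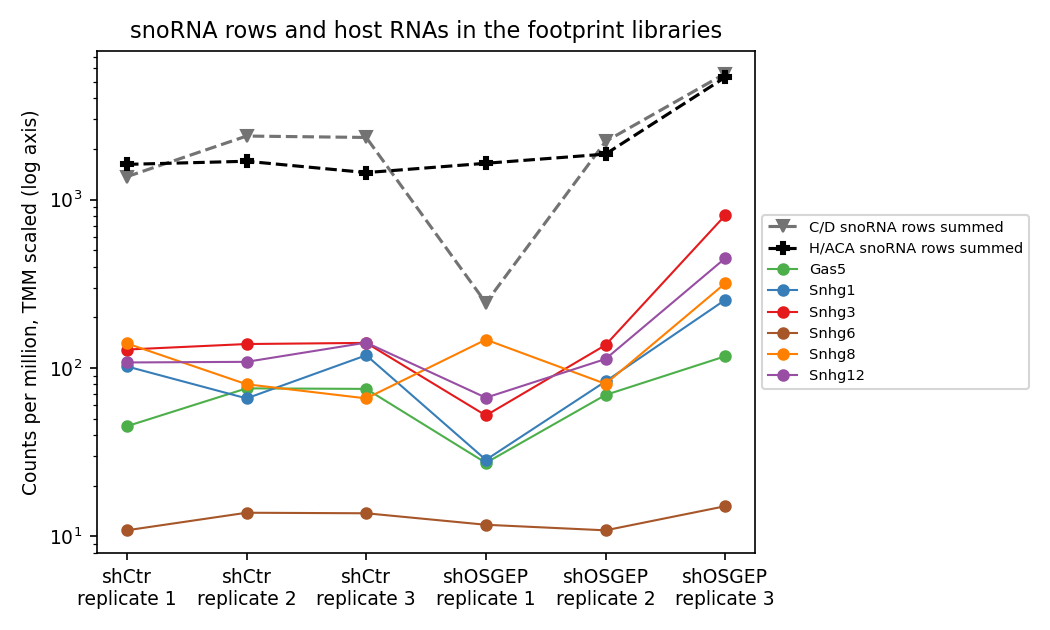
CPM in the 6 RPF libraries on a log axis for the 6 members (solid lines) and for all annotated C/D and H/ACA snoRNA rows summed (dashed lines). Lines join the values of one gene or sum and imply no order of libraries. All 8 are highest in shOSGEP replicate 3, and the C/D sum is 243 CPM in shOSGEP replicate 1, where the H/ACA sum is 1641.

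The machinery around these RNAs was examined through 3 lists. Of 18 nonsense-mediated decay factors, 18 were tested and 0 were called between genotypes in RPF, RNA or translational efficiency (edgeR), with a median RNA difference of −0.13 on the log2 scale. The smallest unadjusted p in RNA belonged to Upf3a, a paralogue of the UPF1 partner Upf3b, at 0.41 (SE 0.20, p 0.08, edgeR adjusted p 0.975), and to Smg9, a cofactor of the SMG1 kinase, at −0.38 (SE 0.24, p 0.166, edgeR adjusted p 0.975). Of 12 genes listed as having mRNAs sensitive to this decay, 0 were called, and the median RNA difference was 0.06. Counts per gene do not separate isoforms, so isoforms that this decay removes were not measured apart from the others. Atf4, the transcription factor of the integrated stress response, measured 0.61 (SE 0.15, p 0.00479, edgeR adjusted p 0.975), with pairs of 0.87, 0.40 and 0.55. Gadd45a, a stress-induced growth arrest gene, measured 1.94 (SE 0.91, p 0.07, edgeR adjusted p 0.975), with pairs of 2.41, 0.44 and 1.29.

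Proteins that assemble snoRNAs were 8, of which 0 were called in RNA, with a median of −0.17. The H/ACA core proteins Nop10 (−0.20, SE 0.17) and Nhp2 (−0.28, SE 0.37) had the smallest unadjusted p (0.279 and 0.469, edgeR adjusted p 0.975). Of the 9 further noncoding hosts tested between genotypes, 0 were called. Their RNA differences were below 0 in 9 of 9 (median −0.19), against 46.9% of all genes tested, with Zfas1 at −0.26 (SE 0.22), Snhg15 at −0.19 (SE 0.29), Snhg5 at −0.17 (SE 0.43) and Snhg17 at −0.10 (SE 0.26). By pair, Snhg5 gave −1.16, 0.09 and 0.07, Snhg15 −0.85, 0.05 and 0.02 and Zfas1 −0.73, −0.12 and −0.04. Snhg17 gave −0.26, −0.23 and 0.12. In RPF, 6 of these 9 hosts were above 0 (median 0.17), and for translational efficiency 8 of 9 (median 0.43). Over all genes tested, 45.1% in RPF and 49.5% for translational efficiency were not above 0.

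Genes with a pattern like the mean of the members were sought over the 12 libraries. log2 CPM was centred within each assay and correlated with the mean of the 6 members, among 6644 genes with at least 10 CPM on average in both assays. The members did not follow this mean equally. Their own Pearson r with it was 0.99 for Snhg3 and Snhg12, 0.93 for Snhg1, 0.81 for Gas5, 0.65 for Snhg8 and 0.23 for Snhg6. The 5 most alike were Rexo4 (Pearson r 0.97), Htra2 (0.96), Plpbp (0.96), Trub2 (0.95) and Zc3h3 (0.94), given as a description over libraries that share their composition and depth. All 5 are protein coding and none hosts an annotated snoRNA. Rexo4 RPF, for example, measured 17.3, 19.3 and 21.4 CPM in shCtr and 13.4, 19.4 and 34.1 in shOSGEP.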

How the data were processed

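RPF and RNA libraries of B16F10 cells were deposited as 2 tables of read counts per Ensembl gene, whole numbers that the authors had not normalised. Per the labels, reads were handled with Trim Galore 0.6.6, cutadapt, FastQC 0.11.9 and STAR, and GRCm38 and GRCm39 are both listed. The methods name STAR and Salmon for an RNA sequencing experiment listed as a separate data set, and perfect matches to coding transcripts for the codon analysis of RPF. Whether either produced these tables, which hold whole numbers and noncoding genes, was not stated, nor was the use of strand or of multiple matches. GENCODE M21 gave symbols and GRCm38 positions (55227 of 55487 identifiers).

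Tests used glmQLFit and glmQLFTest (edgeR 4.0.16, quasi-likelihood, R 4.3.3) after filterByExpr and TMM scaling, with Benjamini-Hochberg adjustment at 0.05. RPF and RNA were fitted separately over 6 libraries each, translational efficiency as the interaction of assay and genotype over 12, and RPF against RNA over the 6 shCtr libraries. TMM was run on each assay alone, except that RPF against RNA used TMM over its 6 libraries. SE was derived from the F statistic. log2 CPM used a prior count of 2. To check the code, the fits were run on simulated counts with known changes. The simulated libraries were independent and had the same dispersion for every gene. They do not show what the fits can detect at the spread of these libraries. snoRNA classes came from symbols and RefSeq product names.

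Replicates are 3 independent transductions per the methods. Same-numbered libraries of both genotypes deviated together (correlation across genes 0.58, 0.50 and 0.65 in RPF, 0.52, 0.55 and 0.29 in RNA), so replicate numbers were taken as pairs in an alternative fit. No library copied another of its group (chi-square per degree of freedom at least 81.1). Alternatives were RLE factors, coding library sizes, 2 other filters, DESeq2 1.42.0, the replicate block, TMM over all 12 libraries and leaving out libraries. Leaving out a whole pair was added after seeing the data.

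The members and lists were chosen with earlier results of these data known. Named were all members, up to 3 snoRNAs per member with at least 10 mean counts, the 4 most abundant further hosts, the 2 smallest unadjusted p in RNA of each list, and the 5 most alike genes. Snora24, Snord22, Dancr, Snhg10 and Snhg20 were named outside this rule after their values were seen.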

Additional observations from a re-analysis of the deposited data

How the results depend on the processing

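Between genotypes, none of the members was called in RPF, RNA or translational efficiency under any alternative run. The number of genes called moved from 0 to 229 in RPF and 21 for translational efficiency without a filter on low counts, to 1 in RPF and 8 in RNA with DESeq2, and to 1 in RNA with the replicate block. With the replicate block the RPF differences of Gas5 and Snhg1 turned to −0.066 and −0.092 and the translational efficiency of Gas5 to −0.12 on the log2 scale, and the last was −0.016 without a filter. The block changed no call of a member. Leaving out 1 library or cell sample, or a pair (added after seeing the data), gave RPF differences of −0.44 to 0.50 for Gas5, −0.78 to 0.85 for Snhg1, −0.53 to 1.78 for Snhg3, −0.19 to 0.12 for Snhg6, 0.047 to 1.42 for Snhg8 and −0.41 to 1.22 for Snhg12. In RNA it gave −0.20 to 0.35 for Gas5, −0.36 to 0.080 for Snhg1, −0.64 to 0.10 for Snhg3 and −0.31 to 0.079 for Snhg12. For translational efficiency it gave −0.28 to 0.18 for Gas5, −0.42 to 0.87 for Snhg1, −0.13 to 2.28 for Snhg3, −0.47 to 0.0071 for Snhg6, 0.53 to 1.73 for Snhg8, −0.11 to 1.39 for Snhg12 and −0.19 to 1.13 for the median of the members. The block also moved the median of the members from 0.58 to 0.15 in RPF and from 0.75 to 0.32 for translational efficiency. In RPF, the negative ends came from leaving out shOSGEP replicate 3. The cause of these reversals was not tested.

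For RPF against RNA in shCtr, genes called numbered 1297, and 407 to 493 without 1 replicate, where fewer samples were fitted, 2086 with DESeq2, 3144 with the replicate block and 5268 without a filter. Members kept their direction in all of these. Groups held 3 libraries each. The SE of Snhg3 in RPF was 0.91, and 0.66 and 0.47 without shOSGEP replicate 1 and 3. How snoRNA reads were counted was not stated for these tables.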

Other observations

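In the comparison of RPF with RNA in shCtr, 126 of the 11228 genes tested stood above Snhg3. By biotype, 55 of them were pseudogenes, 25 protein coding, 15 snoRNAs, 14 small nuclear RNAs and 8 long noncoding RNAs. Over the whole annotation, 18 noncoding genes other than the members whose span holds a snoRNA on the same strand could be tested. Of these, 11 were called higher in RPF and 0 lower by edgeR, against 6.24% of all 11228 genes tested called higher. Their median was 1.23 and their highest value 2.89 on the log2 scale. Among them are Dancr, Snhg17, Snhg5, Snhg15 and Zfas1, already given above, so the 2 sets are not independent. None stood above Snhg8, the lowest of the 3 H/ACA hosts among the members.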
